A study of Mus musculus with 24 samples.

Results

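The colony-stimulating factors (CSFs) and their receptors are 8 genes here: the ligand genes Csf1, Csf2 and Csf3 and the receptor genes Csf1r, Csf2ra, Csf2rb, Csf2rb2 and Csf3r. They were chosen by name, as the rows whose Ensembl identifier carries one of these symbols in GENCODE release M21, and all 8 were found among the 43629 identifiers of each count file. Messenger RNA was sequenced from cultured macrophages that had been derived from marrow of C57BL/6 mice, wild type in genotype, and the comparisons follow the transcripts across stimulus and time. There were 8 groups of 3 libraries, 24 in all: LPS with interferon gamma (IFNg), LPS, interleukin 4 (IL-4) and unstimulated cells, each taken after 18 h or 1 h. LPS is bacterial lipopolysaccharide, which signals through TLR4, and its labelled dose is either 20 or 100 ng/mL, with no word on which libraries had which. LPS with IFNg and LPS alone may therefore differ in LPS dose as well, and dose and IFNg cannot be told apart between them. An effect of IFNg added to LPS means below the difference between these groups. IFNg was at 50 ng/mL and IL-4 at 20 ng/mL. All 8 groups, unstimulated cells included, had been grown to day 7 in 20 ng/mL CSF-1 protein and were kept in medium with CSF-1 during the stimulation, so no group was free of this factor. The labels do not say whether the 3 libraries of a group came from separate mice or cultures, so p-values reflect library-to-library spread alone, and that may be technical.

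CSF-1 (also called M-CSF, gene Csf1) drives survival and growth of macrophages through CSF1R, a receptor tyrosine kinase. GM-CSF (Csf2) binds a receptor made of a specific alpha chain (Csf2ra) and the common beta chain (Csf2rb), which IL-3 and IL-5 receptors also use and which signals through JAK2 and STAT5. Mice carry a second beta chain gene, Csf2rb2, whose product serves IL-3. G-CSF (Csf3) acts through a receptor of identical chains (Csf3r) that is best known on neutrophils. Macrophages are known to make all 3 ligands when microbial products reach them.

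Total counts per library ran from 4181890 to 8122945. All 11 macrophage markers of a fixed list had counts in every group, with a summed level of 11639 to 26178.5 CPM (read counts divided by library size, with TMM scaling between libraries) over the 24 libraries. Levels below are CPM unless marked otherwise, written as mean ± SD with n = 3 libraries a group. A gene was called at a Benjamini-Hochberg adjusted p below 0.05 in edgeR's quasi-likelihood test over 12765 tested genes, and "rose" and "fell" are used of called genes. In bulk RNA, fewer cells of a type and less RNA per cell cannot be told apart.

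The CSF system did not move as a block. Csf1 and Csf2rb each rose in 5 of the 6 comparisons of a stimulus with unstimulated cells, Csf2 appeared at 1 h and was at 0 by 18 h, and Csf3 was low wherever it was seen. Among receptors, Csf2rb and Csf2rb2 rose within 1 h when IFNg was given with LPS, Csf3r rose at 18 h in both LPS groups, and Csf1r fell at 18 h where IFNg was added. At 1 h, 5 of 8 genes rose and 0 fell with LPS and IFNg against unstimulated cells, beside 14.7% of all tested genes called higher and 14.7% lower. With LPS 3 rose and 0 fell at 1 h (10.8% and 11.5% of tested genes), and with IL-4 1 rose and 0 fell (3.22% and 3.27%). The counts at 18 h were 6 higher and 1 lower with LPS and IFNg (36.1% and 36.1%), 6 and 0 with LPS (31.8% and 31.4%), and 3 and 0 with IL-4 (19.0% and 20.1%). Csf2 and Csf3 passed the count filter through the groups where they were high, so these counts describe the genes one by one and are no summary of the family. The comparisons at a time share their unstimulated libraries.

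Scaling by library size alone, without TMM, shifted the median of all tested genes by -0.25 on the log2 scale for LPS with IFNg and -0.19 for LPS at 1 h, and by -0.54 and -0.41 at 18 h. Under it, 17.2% of called genes were higher for LPS with IFNg at 1 h (49.9% with TMM) and 20.2% for LPS (48.5% with TMM). At 18 h these shares were 24.5% for LPS with IFNg (49.9% with TMM) and 23.0% for LPS (50.3% with TMM). Changes below are relative to TMM scaling, which put the median of all tested genes between -0.023 and 0.023 in every comparison.

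**Figure D1:**
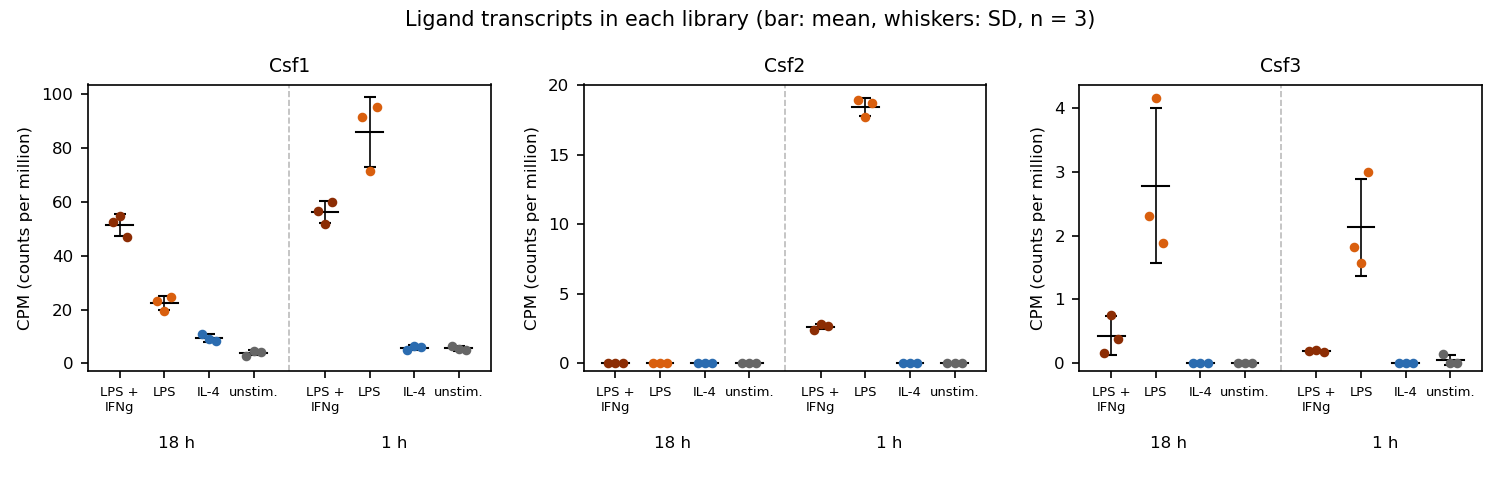
Level of the 3 ligand transcripts in CPM in each library, by stimulus, with 18 h left and 1 h right of the dashed line. Points are libraries, the horizontal bar is the mean and whiskers are the SD of 3 libraries. Csf1 reached 71.3 to 95.2 CPM with LPS at 1 h, Csf2 had counts in the LPS groups at 1 h and in no other group, and Csf3 was at most 4.16 CPM.

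The ligand transcripts differ in AU-rich elements, sequences in the 3′ UTR that are known to mark cytokine mRNAs for fast decay. One 30-base window of each 3′ UTR is shown because it is the window with most copies of the heptamer TATTTAT, in capitals, read 5′ to 3′ on the transcribed strand of GRCm38. The Csf2 window lies at chr11:54247325-54247354 (minus strand), the Csf3 window at chr11:98702988-98703017 (plus strand) and the Csf1 window at chr3:107742910-107742939 (minus strand).
Csf2: taaaTATTTATTTATTTATTTATTTATttt
Csf3: gttTATTTATctctatttaaTATTTATgca
Csf1: acatactgccacTATTTATtgtgggccctg
Counted with overlaps, the whole 3′ UTR of Csf2 (317 bases) holds 9 heptamers, and 0.0536% of tested genes with a 3′ UTR have at least as many. Csf3 holds 2 in 669 bases, a number that 10.5% of tested genes reach, and Csf1 holds 1 in 2111 bases, which 30.2% reach. None of the 5 receptor transcripts holds one. A match describes the letters of the transcript and does not show that a factor binds there.

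Csf2, the GM-CSF gene on chromosome 11 (54247271 to 54249667, minus strand), was seen in 6 libraries, all of them at 1 h. With LPS and IFNg at 1 h its 3 libraries held 13, 14 and 15 reads, or 2.40, 2.79 and 2.69 CPM. LPS at 1 h gave 93, 79 and 75 reads, or 18.9, 17.7 and 18.7 CPM. All 18 libraries of the other 6 groups held 0 reads, which allows group levels of up to 0.132 to 0.191 CPM (3 counts summed over a group, counting error only). No library overlapped between any pair of these 3 states. Against unstimulated cells at 1 h, Csf2 was at least 17.0-fold higher with LPS and IFNg (adjusted p = 1.22e-06) and at least 119-fold higher with LPS (adjusted p = 2.03e-11). With LPS and IFNg at 1 h it was 6.99-fold lower than with LPS alone, a log2 difference of -2.80 ± 0.22 (SE, adjusted p = 2.22e-08). At 18 h against 1 h it was at least 14.9-fold lower with LPS and IFNg and at least 96.8-fold lower with LPS. Because the 18 h groups are all at 0, differences of response between the times could not be estimated for Csf2. A predicted gene on the opposite strand, Gm12223, shares 96 exonic bases with Csf2 and had 10 reads with LPS and IFNg and 70 with LPS at 1 h, against 0 in unstimulated cells. Whether reads were counted by strand is not given, so reads of the pair cannot be told apart.

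Csf3, the G-CSF gene (chromosome 11, 98701263 to 98703629, plus strand), was the least abundant member on average over the 24 libraries. At 1 h it had 1 read in each library with LPS and IFNg, 9, 7 and 12 reads with LPS, and 1, 0 and 0 reads in unstimulated cells. At 18 h it had 1, 4 and 2 reads with LPS and IFNg, 13, 20 and 10 reads with LPS, and 0 in unstimulated cells. IL-4 libraries held 0 reads at both times. The LPS libraries stood above every other library, and the count is what limits their precision. The rise with LPS was a count ratio of 40.6 at 1 h (95% interval 6.71 to 1659, adjusted p = 4.03e-05) and at least 17.3-fold at 18 h (adjusted p = 3.74e-07). With LPS and IFNg it rose at least 2.61-fold at 18 h (adjusted p = 0.00739), while 3 reads against 1 at 1 h give no usable fold (adjusted p = 0.434). Set against LPS alone, LPS with IFNg was lower by a count ratio of 11.2 at 1 h (95% interval 3.45 to 57.4, adjusted p = 0.000788). At 18 h the same difference was -2.67 ± 0.51 on the log2 scale (adjusted p = 0.000138). Unlike Csf2, the LPS level was kept: 2.79 ± 1.21 CPM at 18 h and 2.13 ± 0.76 CPM at 1 h, with overlapping libraries (log2 difference 0.38 ± 0.38, adjusted p = 0.392).

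Csf1 (chromosome 3, 107741048 to 107760469, minus strand), whose protein was also in the medium of all cultures, was transcribed at a low level in unstimulated cells and rose with each stimulus. At 1 h its libraries held 56.6, 51.9 and 60.0 CPM with LPS and IFNg, 91.4, 71.3 and 95.2 CPM with LPS, 4.93, 6.54 and 6.13 CPM with IL-4, and 6.49, 5.28 and 4.87 CPM unstimulated. Both LPS groups lay far above the unstimulated libraries, and IL-4 overlapped them. The log2 change was 3.32 ± 0.15 with LPS and IFNg (adjusted p = 2.03e-17), 3.93 ± 0.15 with LPS (adjusted p = 2.34e-19) and 0.04 ± 0.21 with IL-4 (adjusted p = 0.978). At 18 h the libraries held 52.6, 54.7 and 46.9 CPM with LPS and IFNg, 23.3, 19.4 and 24.7 CPM with LPS, 11.1, 8.90 and 8.39 CPM with IL-4, and 2.87, 4.62 and 4.38 CPM unstimulated. All 4 groups were then separate from each other. The changes at 18 h were 3.68 ± 0.16 for LPS with IFNg, 2.49 ± 0.18 for LPS and 1.24 ± 0.20 for IL-4 (adjusted p of 1.37e-05 or smaller).

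For Csf1 the difference between LPS with IFNg and LPS alone changed sign with time. Against LPS alone, LPS with IFNg was lower at 1 h (-0.61 ± 0.11, adjusted p = 0.000117) and higher at 18 h (1.19 ± 0.13, adjusted p = 4.01e-09), and the difference between the 2 effects was 1.80 ± 0.17 (adjusted p = 7.93e-10). With LPS the level fell to 22.4 ± 2.78 CPM at 18 h, against 86.0 ± 12.8 CPM at 1 h. With LPS and IFNg it was 51.4 ± 4.04 CPM at 18 h and 56.2 ± 4.07 CPM at 1 h, a log2 difference of -0.13 ± 0.11 that was not called (adjusted p = 0.307), though under library-size scaling it was (-0.32, adjusted p = 0.0123). The response to IL-4 was larger at 18 h than at 1 h by 1.20 ± 0.30 (adjusted p = 0.00361), while for LPS the response at 18 h minus that at 1 h was -1.44 ± 0.27 (adjusted p = 4.42e-05). Markers of stromal cells, another known source of Csf1, summed to 2.33 to 3.03 CPM with LPS and IFNg, 4.97 to 7.74 CPM with LPS and 0.338 to 1.10 CPM in unstimulated libraries at 18 h. All 7 stromal markers had counts in both LPS groups at 18 h, and 2 were at 0 in the unstimulated group. Dcn was at 1.16 CPM with LPS and IFNg, 4.85 CPM with LPS and 0.104 CPM unstimulated, and made up most of the sum with LPS. Col3a1, Lum, Col1a2 and Pdgfra were each at 0.118 to 0.202 CPM with LPS. Endothelial markers summed to 26.5 to 31.2 CPM, 19.4 to 28.9 CPM and 3.72 to 5.07 CPM in these groups, from 5 genes of which Kdr and Pecam1 made up most. The part of such cells in the result was not tested. At 1 h, where Csf1 rose most with LPS, the stromal sum was 0.185 to 1.08 CPM with LPS and IFNg, 0.448 to 0.999 CPM with LPS and 0.293 to 1.38 CPM unstimulated. T cells are a known source of Csf2. Their 7 markers summed to 1.07 to 8.50 CPM over the 24 libraries, with 594 reads of Cd4, 3 each of Cd3d and Cd8a, 2 of Cd8b1, 1 each of Cd3g and Trac and 0 of Cd3e. At 1 h the sum was 3.38 to 8.42 CPM with LPS and IFNg, 4.71 to 6.91 CPM with LPS and 4.11 to 8.44 CPM unstimulated, and its part in the Csf2 values was not tested.

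The promoter of Csf1 is shown since the gene answered both LPS stimuli and holds matches to a kappaB-like motif, GGGA and CC with 4 bases of any kind between them, searched on both strands. It covers 250 bases before the RefSeq start, on the minus strand at chr3:107760470-107760719 (RefSeq, GRCm38.p6), with matches in capitals.
Csf1 promoter: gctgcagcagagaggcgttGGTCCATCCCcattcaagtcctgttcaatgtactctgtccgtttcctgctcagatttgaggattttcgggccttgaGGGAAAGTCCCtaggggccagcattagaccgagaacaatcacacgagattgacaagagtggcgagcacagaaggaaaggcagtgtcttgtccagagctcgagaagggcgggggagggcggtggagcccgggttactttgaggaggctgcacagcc
The first run of capitals spans bases 231 to 222 before the start, and the second, bases 155 to 145, holds 2 overlapping matches, 1 on each strand. Of 32851 RefSeq promoters of this length, 17.6% hold the motif, so a match by itself is common. No match to a STAT6-like motif, TTC and GAA with 4 bases of any kind between them (5.85% of promoters), or an AP-1-like motif, TGANTCA (6.75%), was found in this window, which says only that those letters are not in it. RefSeq promoters were matched for 5 of the 8 genes. The window of Csf3r also holds a kappaB-like match, and those of Csf2, Csf2ra and Csf2rb2 hold none; the RefSeq start of Csf2 lies 232 bases upstream of the GENCODE start.

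NF-kappaB is among the factors that TLR4 signals through, and its subunits and inhibitors form a list of 11 genes. All 11 rose and 0 fell in both LPS groups at both times, with a median log2 change of 2.66 for LPS with IFNg and 2.74 for LPS at 1 h, and 2.34 and 2.05 at 18 h. Of all tested genes at 1 h, 14.7% were called higher and 14.7% lower with LPS and IFNg, and 10.8% and 11.5% with LPS. At 18 h these shares were 36.1% and 36.1%, and 31.8% and 31.4%. Nfkbiz, encoding an atypical IkappaB protein, rose by 7.95 ± 0.13 with LPS and IFNg and 7.69 ± 0.13 with LPS at 1 h, and Tnfaip3, encoding the inhibitor A20, by 5.76 ± 0.10 and 5.62 ± 0.10. With IL-4, 2 rose and 2 fell at 1 h (median -0.12), beside 3.22% and 3.27% of tested genes, and Nfkbiz fell by 1.79 ± 0.25. Between the 2 LPS groups 2 of 11 rose and 1 fell at 1 h with IFNg added, beside 6.51% and 5.25% of tested genes. Nfkbie was lower, at 111 CPM with LPS and IFNg against 244.5 CPM with LPS (-1.14 ± 0.10, adjusted p = 4.91e-10). At 18 h 6 of 11 rose and 1 fell (median 0.47), and Nfkbie was higher, at 192 CPM with LPS and IFNg against 88.7 CPM with LPS (1.11 ± 0.10, adjusted p = 3.72e-10).

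Of 9 factors that act on AU-rich or stem-loop elements in cytokine mRNAs, 5 rose and 1 fell at 1 h, both with LPS and IFNg (median 0.31) and with LPS (median 0.40). Of all tested genes, 14.7% were called higher and 14.7% lower with LPS and IFNg, and 10.8% and 11.5% with LPS. Zfp36 encodes tristetraprolin, which binds AU-rich elements of cytokine mRNAs, Csf2 among them. It averaged 3597 CPM with LPS and IFNg and 1340.5 CPM with LPS at 1 h, against 158 CPM in unstimulated cells. The difference between the 2 LPS groups was 1.42 ± 0.10 (adjusted p = 8.97e-13). Zc3h12a, encoding the ribonuclease Regnase-1, ran the other way, at 220 CPM with LPS and IFNg and 290 CPM with LPS (-0.40 ± 0.09, adjusted p = 0.00227), while Zfp36l2 was higher with IFNg by 0.40 ± 0.09 and Zfp36l1 lower by 0.51 ± 0.14. In all, 2 of the 9 rose and 2 fell with IFNg added to LPS at 1 h, when 6.51% of tested genes were called higher and 5.25% lower. Whether these differences bear on Csf2 or Csf3 was not tested.

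**Figure D2:**
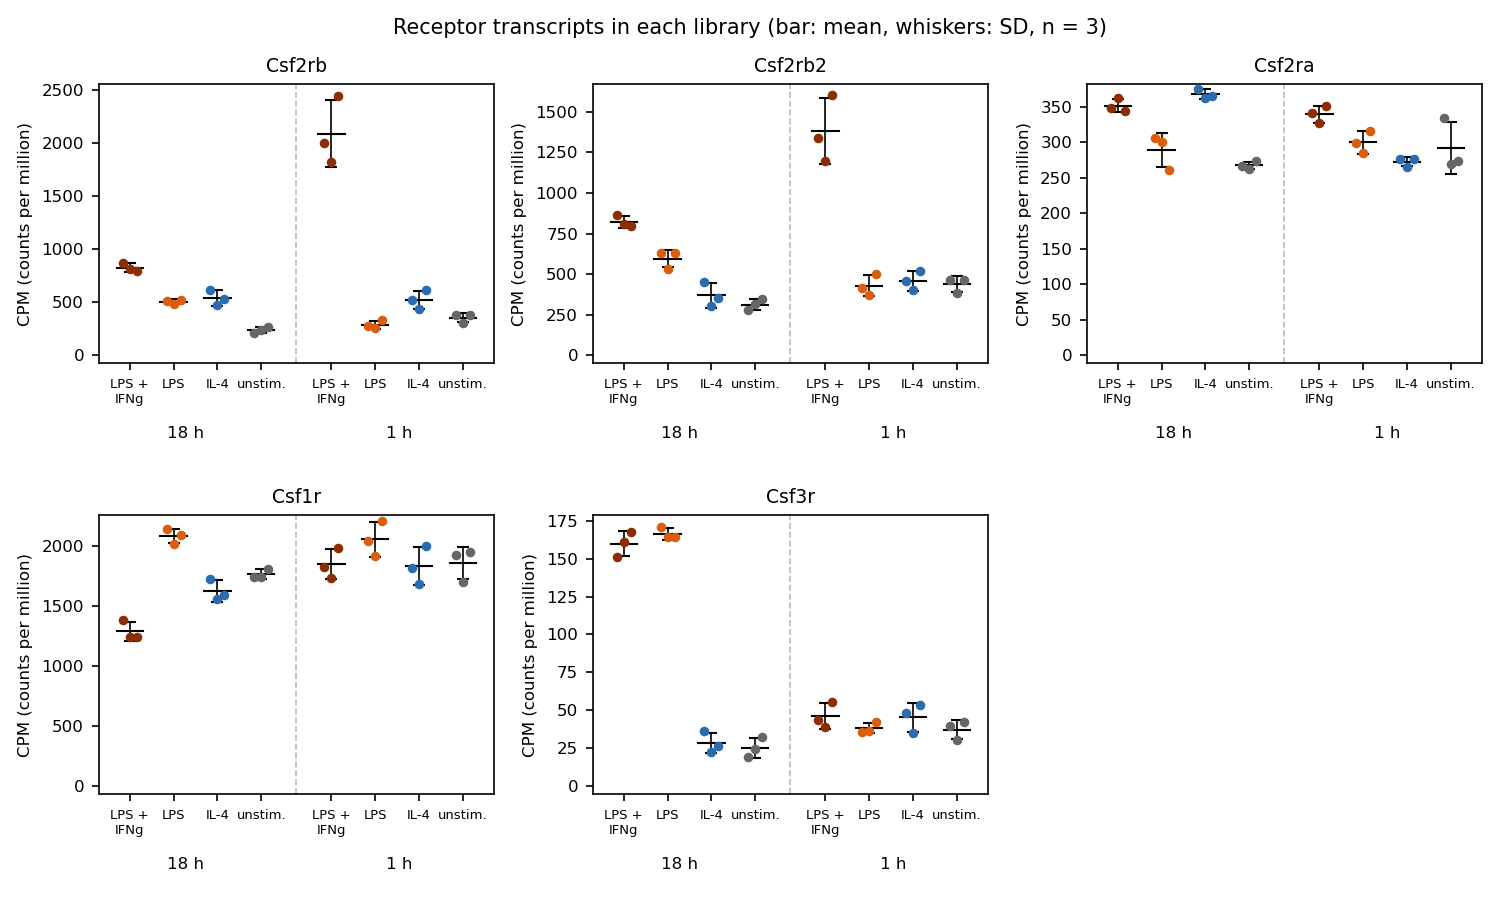
Level of the 5 receptor transcripts in CPM in each library, by stimulus, with 18 h left and 1 h right of the dashed line. Points are libraries, the horizontal bar is the mean and whiskers are the SD of 3 libraries. Csf2rb and Csf2rb2 peak with LPS and IFNg at 1 h, and Csf3r is above 150 CPM in both LPS groups at 18 h and under 56 CPM in every other library.

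Among the receptors the order of abundance was compared as FPKM, that is CPM per kilobase of merged exon. Csf1r led with a mean of 310.4 FPKM over the 24 libraries, followed by Csf2rb2 with 127, Csf2ra with 108, Csf2rb with 92.4 and Csf3r with 18.9. By this mean the ligands came last, Csf1 at 5.70, Csf2 at 3.29 and Csf3 at 0.494 FPKM. Per length of the longest transcript, 6 of the 8 kept their place and Csf2rb and Csf2rb2 changed places. In unstimulated cells at 18 h the neighbours were well apart: Csf1r 305 ± 6.90, Csf2ra 93.1 ± 1.92, Csf2rb2 65.8 ± 7.17, Csf2rb 33.0 ± 3.69 and Csf3r 7.02 ± 1.79 FPKM. With LPS and IFNg at 1 h the first 3 places by merged exon length did not differ beyond their spread, with Csf1r at 320 ± 21.4, Csf2rb2 at 291 ± 43.1 and Csf2rb at 287 ± 43.6 FPKM. Per length of the longest transcript the order there was Csf2rb at 427, Csf1r at 393 and Csf2rb2 at 291 FPKM, so it depends on the length used. The ligands did not come last in every group. With LPS at 1 h Csf2 was at 23.1 ± 0.80, Csf1 at 16.3 ± 2.43 and Csf3r at 10.6 ± 0.93 FPKM by merged exon length.

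Csf2rb, the common beta chain gene (chromosome 15, 78325752 to 78353847, plus strand), had the largest receptor change at 1 h. Its libraries held 2003, 1829 and 2444 CPM with LPS and IFNg, 275, 260.3 and 334 CPM with LPS, 522, 436 and 613 CPM with IL-4, and 380.2, 306 and 383 CPM unstimulated. The LPS and IFNg libraries were several times above all others, and LPS alone overlapped the unstimulated cells. The changes were 2.55 ± 0.12 with LPS and IFNg (5.87-fold, adjusted p = 8.33e-17), -0.30 ± 0.12 with LPS (adjusted p = 0.0799) and 0.56 ± 0.12 with IL-4 (adjusted p = 0.00188). Against LPS alone, LPS with IFNg was 7.22-fold higher, 2.85 ± 0.13 on the log2 scale (adjusted p = 3.57e-17).

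At 18 h Csf2rb was higher with every stimulus. The libraries held 874, 813 and 794 CPM with LPS and IFNg, 518, 481 and 522 CPM with LPS, 616, 473 and 531 CPM with IL-4, and 213, 241 and 267 CPM unstimulated. No treated library overlapped an unstimulated one, and LPS and IL-4 overlapped each other. The log2 changes were 1.78 ± 0.12, 1.08 ± 0.12 and 1.17 ± 0.12 (adjusted p of 6.64e-09 or smaller). With LPS and IFNg the level fell to 827 ± 41.9 CPM at 18 h, against 2092 ± 317 CPM at 1 h (-1.34 ± 0.12, adjusted p = 3.08e-11), whereas with LPS alone it rose to 507 ± 22.3 CPM at 18 h, against 289.8 ± 38.8 CPM at 1 h (0.81 ± 0.12, adjusted p = 1.2e-06). The effect of IFNg added to LPS was 0.71 ± 0.12 at 18 h (adjusted p = 1.19e-05), and that minus the effect at 1 h was -2.15 ± 0.17 (adjusted p = 2.79e-11).

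Csf2rb2, the beta chain gene of the IL-3 receptor in mice, lies on the same chromosome (78282507 to 78305721, minus strand), 20030 bases from Csf2rb. At 1 h it was at 1338, 1200.4 and 1603 CPM with LPS and IFNg, 412, 373 and 501 CPM with LPS, 459, 399.7 and 522 CPM with IL-4, and 466, 381 and 466 CPM unstimulated. LPS with IFNg stood apart and the other groups overlapped. The change with LPS and IFNg was 1.66 ± 0.13 (adjusted p = 6.74e-12), and against LPS alone it was 1.69 ± 0.13 (adjusted p = 1.41e-11). With LPS (-0.03 ± 0.13, adjusted p = 0.919) and IL-4 (0.07 ± 0.13, adjusted p = 0.903) no change was called. Means at 18 h were 824 ± 37.1 CPM with LPS and IFNg, 596 ± 54.7 CPM with LPS, 370.4 ± 76.7 CPM with IL-4 and 312 ± 34.0 CPM unstimulated. It rose by 1.40 ± 0.13 with LPS and IFNg and 0.93 ± 0.13 with LPS (adjusted p of 2.7e-07 or smaller), and the IL-4 libraries overlapped the unstimulated ones (0.25 ± 0.13, adjusted p = 0.13). Without IL-4 18 h replicate 2, which differed from the other IL-4 libraries of that time by a chi-square per gene of 7.46 and 4.59, the IL-4 value was 0.37 and called (adjusted p = 0.0287). The effect of IFNg added to LPS was 0.47 ± 0.13 at 18 h (adjusted p = 0.00297) and that minus the effect at 1 h was -1.22 ± 0.18 (adjusted p = 2.88e-06).

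The share of Csf2rb in the joint counts of both beta chain genes is given as a description, since an exact permutation test of 3 against 3 libraries cannot pass 0.05. Csf2rb made up 59.9% to 60.4% of the joint Csf2rb and Csf2rb2 counts with LPS and IFNg at 1 h, 40.0% to 41.1% with LPS, 52.2% to 54.0% with IL-4, and 44.6% to 45.1% in unstimulated cells. The ranges at 18 h were 49.9% to 50.2% with LPS and IFNg, 45.2% to 47.5% with LPS, 57.6% to 60.9% with IL-4, and 43.3% to 43.7% unstimulated. In each of these 6 pairs the libraries did not overlap, which in an exact two-sided permutation test gives p = 0.1, the smallest p that 3 against 3 allows. The share uses counts that are not divided by length, so it compares groups and not the genes. Counts can be split wrongly between these copies: of the 50-base words of their exons, 12.3% in Csf2rb and 18.4% in Csf2rb2 occur in the other gene, and 7.15% and 10.6% of 75-base words do. How reads with several alignments were treated is not given. With both genes summed, the rise with LPS and IFNg at 1 h was 2.13 and that with IL-4 at 18 h was 0.72 (adjusted p of 2.32e-05 or smaller), while the IL-4 value at 1 h was 0.31 and no longer called (adjusted p = 0.177).

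**Figure D3:**
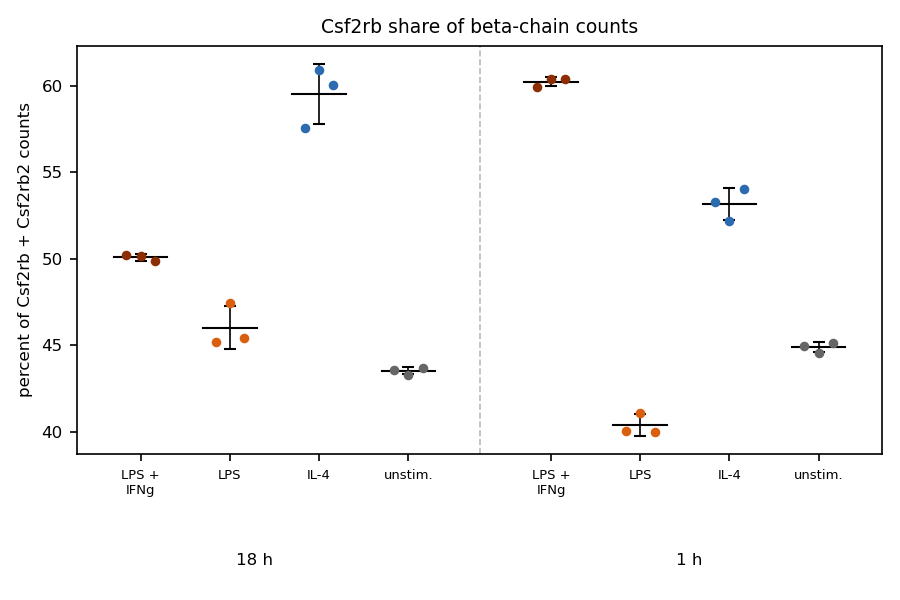
Share of Csf2rb in the joint counts of both beta chain genes, in percent, in each library, with 18 h left and 1 h right of the dashed line; the axis does not start at 0. Points are libraries, the bar is the mean and whiskers the SD of 3 libraries. The share is near 60% with LPS and IFNg at 1 h and with IL-4 at 18 h, and 43.3% to 45.1% in unstimulated libraries.

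Csf2ra, the alpha chain gene that gives the GM-CSF receptor its specificity (chromosome 19, 61223957 to 61228429, minus strand), moved little. At 18 h it was at 348, 362 and 344 CPM with LPS and IFNg, 305, 299.9 and 261 CPM with LPS, 375, 362 and 365 CPM with IL-4, and 267, 262 and 273 CPM unstimulated. The LPS with IFNg and IL-4 libraries lay above all unstimulated ones, and LPS alone overlapped them. It rose by 0.39 ± 0.07 with LPS and IFNg (adjusted p = 2.04e-05), a value that was -0.14 and not called under library-size scaling (adjusted p = 0.0646), and by 0.46 ± 0.07 with IL-4 (adjusted p = 8.36e-06). With LPS the value was 0.11 ± 0.07 (adjusted p = 0.188), and -0.31 and called under library-size scaling (adjusted p = 0.000287). At 1 h the means were 339 ± 11.8 CPM with LPS and IFNg, 299.7 ± 15.7 CPM with LPS, 273 ± 6.2 CPM with IL-4 and 292 ± 36.5 CPM unstimulated. The call for LPS with IFNg at 1 h (0.21 ± 0.07, adjusted p = 0.0252) came with overlapping libraries and turned to -0.05 under library-size scaling (adjusted p = 0.568). It was also lost without unstimulated replicate 2 (0.16, adjusted p = 0.157) or 3 (0.17, adjusted p = 0.132) and without LPS with IFNg replicate 1 (0.21, adjusted p = 0.0626) or 3 (0.19, adjusted p = 0.0973).

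Csf1r, the CSF-1 receptor gene and a lineage marker of macrophages (chromosome 18, 61100598 to 61132149, plus strand), was at 1240.4 to 2203 CPM in all 24 libraries. At 1 h no stimulus gave a call: the means were 1846 ± 124 CPM with LPS and IFNg, 2053 ± 143 CPM with LPS, 1831 ± 158 CPM with IL-4 and 1857 ± 135 CPM unstimulated. Under library-size scaling LPS with IFNg was called lower at 1 h (-0.27, adjusted p = 0.00131). At 18 h the libraries held 1378, 1242 and 1240.4 CPM with LPS and IFNg, 2138, 2018 and 2086 CPM with LPS, 1725, 1555 and 1587 CPM with IL-4, and 1738, 1742 and 1809 CPM unstimulated. LPS with IFNg and IL-4 both lay below the unstimulated libraries and LPS above them. Csf1r fell by 0.45 ± 0.07 with LPS and IFNg (adjusted p = 2.61e-06), and the IL-4 value was -0.12 ± 0.07 (adjusted p = 0.198). With LPS it rose by 0.24 ± 0.07 (adjusted p = 0.00547), a direction that library-size scaling turned round to -0.18 (adjusted p = 0.0175). Macrophage markers summed to 13307 to 13497 CPM with LPS and IFNg, 24374 to 26178.5 CPM with LPS, and 15089 to 17254 CPM unstimulated at 18 h. Single macrophage markers went apart. Lyz2, the largest, was at 5238 CPM with LPS and IFNg and 11569 CPM with LPS, against 9690 CPM unstimulated. Adgre1 was at 2597 and 5064 CPM, against 1189 CPM. Dendritic cell markers, all 6 with counts in each group, summed to 37.1 to 55.1 CPM, 13.0 to 19.8 CPM and 3.21 to 4.17 CPM in these groups. Ccr7 made up most of the sum in both LPS groups, at 31.9 and 11.7 CPM, against 0.941 CPM unstimulated. Xcr1 was higher in both too, at 8.33 and 3.33 CPM, against 0.157 CPM. Siglech went the other way, at 0.115 and 0.0694 CPM, against 0.849 CPM, and so did Flt3, at 0.241 and 0.559 CPM, against 1.09 CPM. Clec9a and Zbtb46 were higher with LPS and IFNg and lower with LPS than unstimulated. Clec9a was at 4.83 and 0.129 CPM, against 0.308 CPM, and Zbtb46 at 1.31 and 0.375 CPM, against 0.418 CPM. The part of such shifts in the Csf1r values was not tested. Against LPS alone, LPS with IFNg was lower by a log2 value of -0.69 ± 0.07 (1.62-fold, adjusted p = 4.09e-09), and that minus the effect at 1 h was -0.54 ± 0.10 (adjusted p = 0.000122). The gene shares 873 exonic bases with Hmgxb3 on the opposite strand, which had 4627 reads over all 24 libraries, while Csf1r had 22004 to 36807 in each group.

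Csf3r, the G-CSF receptor gene (chromosome 4, 126024550 to 126044440, plus strand), rose late. At 18 h the libraries held 151, 161 and 168 CPM with LPS and IFNg, 171, 164.2 and 164.1 CPM with LPS, 36.1, 22.7 and 26.7 CPM with IL-4, and 19.4, 24.3 and 32.2 CPM unstimulated. The 6 libraries of both LPS groups lay above 150 CPM and the 6 others below 37 CPM. The change was 2.65 ± 0.16 with LPS and IFNg (6.29-fold, adjusted p = 2.64e-15) and 2.71 ± 0.16 with LPS (6.55-fold, adjusted p = 2.56e-15). With IFNg added to LPS the difference was -0.06 ± 0.13 (adjusted p = 0.755), with overlapping libraries. At 1 h no change was called, with means of 46.1 ± 8.49 CPM with LPS and IFNg, 38.1 ± 3.37 CPM with LPS, 45.5 ± 9.62 CPM with IL-4 and 37.3 ± 6.01 CPM unstimulated. The response at 18 h exceeded that at 1 h by 2.34 ± 0.23 for LPS with IFNg (adjusted p = 3.71e-10) and 2.68 ± 0.23 for LPS (adjusted p = 5.38e-11).

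Neutrophils carry much Csf3r, so their markers were read beside it. A list of 10 neutrophil markers summed to 35.7 to 60.1 CPM with LPS and IFNg, 146 to 202 CPM with LPS and 139 to 205 CPM in unstimulated cells at 18 h. All 10 had counts with LPS and in unstimulated cells, and 2 were at 0 with LPS and IFNg. The sum was lower with LPS and IFNg than in unstimulated cells, and with LPS it overlapped them. Single markers went apart: S100a8 was at 12.5 CPM with LPS and IFNg and 55.9 CPM with LPS at 18 h, against 25.8 CPM unstimulated, and Ltf at 2.87 and 17.3 CPM, against 30.7 CPM. The part of neutrophils in the Csf3r values was not tested.

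**Figure D4:**
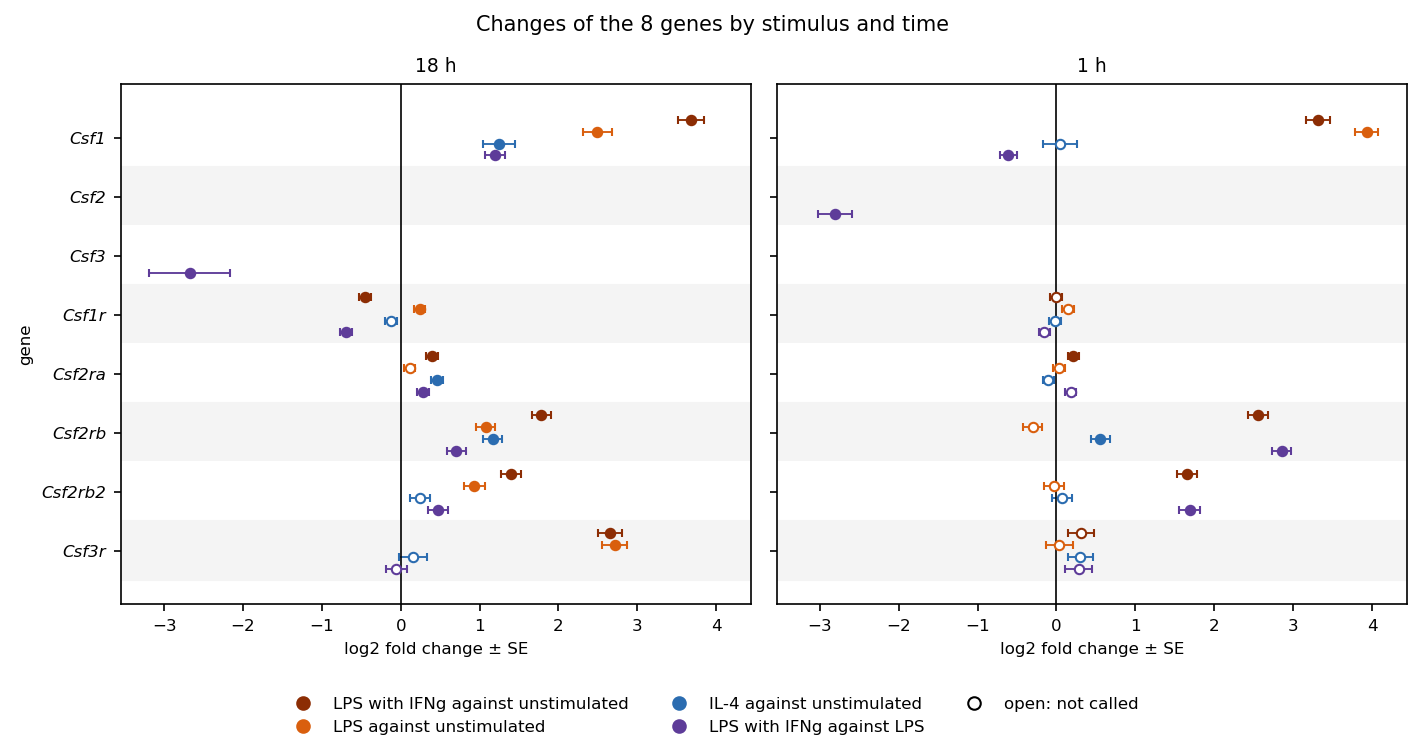
Log2 fold change with SE of the 8 genes, 18 h left and 1 h right, for 3 stimuli against unstimulated cells and for LPS with IFNg against LPS. Filled points were called and open points were not, and a change is left out where a group had 3 reads or fewer. The Csf1 point for LPS with IFNg against LPS lies right of 0 at 18 h and left of it at 1 h, and all 4 Csf2rb points lie right of 0 at 18 h.

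The difference between LPS with IFNg and LPS alone had opposite signs among the 8 genes. Against LPS alone at 1 h, 2 rose (Csf2rb and Csf2rb2) and 3 fell (Csf1, Csf2 and Csf3), when 6.51% of tested genes were called higher and 5.25% lower. At 18 h 4 rose (Csf1, Csf2ra, Csf2rb and Csf2rb2) and 2 fell (Csf3 and Csf1r), beside 24% and 23.4% of tested genes. Csf2 and Csf3 passed the count filter through the groups where they were high, so their falls cannot be weighed against these shares. The counts are no summary of the family. With library-size scaling 40.5% of genes called at 1 h were higher (55.4% with TMM), and 37.3% at 18 h (50.6% with TMM). The interaction of the difference between the 2 LPS groups with time was called for 1 gene higher at 18 h (Csf1) and 3 lower (Csf1r, Csf2rb and Csf2rb2), with 16.5% and 18.5% of tested genes called. For Csf2ra (0.10 ± 0.10) and Csf3r (-0.34 ± 0.22) no difference between the times was called.

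Some receptors also differed between 18 h and 1 h without a stimulus. In unstimulated cells 0 of the 8 rose and 3 fell at 18 h against 1 h, when 4.00% of tested genes were called higher and 8.01% lower. Csf2rb was at 240.4 ± 26.8 CPM at 18 h and 356 ± 43.4 CPM at 1 h, a log2 change of -0.57 ± 0.12 (adjusted p = 0.00185). The falls of Csf2rb2 (-0.49 ± 0.13, adjusted p = 0.0109) and Csf3r (-0.55 ± 0.17, adjusted p = 0.0344) depended on single libraries. Without unstimulated 1 h replicate 1, unstimulated 1 h replicate 3 or unstimulated 18 h replicate 1, neither was called, and Csf2rb2 then lay between -0.44 and -0.41 and Csf3r between -0.50 and -0.40. Csf3r was lost also without unstimulated 18 h replicate 2 (-0.51, adjusted p = 0.119). Csf1 was at 3.96 ± 0.95 CPM at 18 h and 5.55 ± 0.84 CPM at 1 h and was not called (adjusted p = 0.181). With library-size scaling 59.3% of genes called in this comparison were higher, against 33.3% with TMM.

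Within a stimulus, 18 h against 1 h gave 1 gene higher and 4 lower for LPS with IFNg (35.8% and 37.0% of tested genes), 3 higher and 2 lower for LPS (32.2% and 32.5%), and 2 higher and 2 lower for IL-4 (19.3% and 21.8%). Csf2, with no reads at 18 h, is among the lower genes in both LPS groups. It passed the count filter through the 1 h groups where it was high, so its falls cannot be weighed against these shares. Under library-size scaling 38.5% of called genes were higher for LPS with IFNg (49.1% with TMM) and 38.8% for LPS (49.8% with TMM). Csf3r rose in both LPS groups, by 1.79 ± 0.15 with IFNg and 2.13 ± 0.16 without. In IL-4 cells it fell by 0.69 ± 0.16, to 28.5 ± 6.88 CPM at 18 h against 45.5 ± 9.62 CPM at 1 h (adjusted p = 0.00104). Csf2rb2 fell by 0.31 ± 0.13 in IL-4 cells (adjusted p = 0.049), a call that was lost without IL-4 1 h replicate 1 or 3 or IL-4 18 h replicate 2 or 3, with values from -0.32 to -0.19. With all libraries kept it was also lost with median-of-ratios scaling (adjusted p = 0.0511), library-size scaling (0.0514), DESeq2 (0.0591) and the compared groups alone (0.0616).

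Differences of the stimulus response between the times were called for 1 gene higher at 18 h and 2 lower with LPS and IFNg (31.8% and 32.2% of tested genes), 3 higher and 1 lower with LPS (27.0% and 27.2%), and 3 higher and 0 lower with IL-4 (10.1% and 11.4%). With library-size scaling the share higher among called genes was 35.3% for LPS with IFNg (49.7% with TMM), 34.0% for LPS (49.9% with TMM) and 35.8% for IL-4 (47.1% with TMM). For LPS, Csf2rb (1.38 ± 0.17) and Csf2rb2 (0.96 ± 0.18) responded more at 18 h. With LPS and IFNg Csf2rb responded less at 18 h (-0.77 ± 0.17, adjusted p = 0.00022). For IL-4, Csf2ra (0.56 ± 0.10, adjusted p = 0.000149) and Csf2rb (0.61 ± 0.17, adjusted p = 0.00894) responded more at 18 h. The Csf2rb value for IL-4 was 0.41 and not called with both beta chains summed (adjusted p = 0.0898).

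Downstream of these receptors, kinases and STAT proteins pass on the signal. Of 29 receptor-proximal signalling genes, 18 rose and 0 fell with LPS and IFNg at 1 h, 10 rose and 1 fell with LPS, and 1 rose and 1 fell with IL-4, and at 18 h 16 rose and 6 fell with LPS and IFNg, 16 and 5 with LPS, and 6 and 9 with IL-4. The median log2 change of the list was 0.26 with LPS and IFNg and 0.12 with LPS at 1 h, and 0.58 and 0.41 at 18 h. Of all tested genes at 1 h, 14.7% were called higher and 14.7% lower with LPS and IFNg, 10.8% and 11.5% with LPS, and 3.22% and 3.27% with IL-4. At 18 h these shares were 36.1% and 36.1%, 31.8% and 31.4%, and 19.0% and 20.1%. These shares are also the background of the lists that follow. Jak2, the kinase bound to the common beta chain, was at 356 CPM with LPS and IFNg, 205 CPM with LPS and 54.1 CPM with IL-4 at 18 h, against 28.1 CPM in unstimulated cells. Its rises were 3.66 ± 0.13, 2.87 ± 0.13 and 0.94 ± 0.14. Stat5a, a main target of JAK2 at this receptor, rose by 1.89 ± 0.10 with LPS and IFNg and 1.48 ± 0.10 with LPS at 1 h. By 18 h it was at 24.7 CPM with LPS and IFNg and 27.6 CPM with LPS, against 26.1 CPM unstimulated, and was not called (adjusted p = 0.49 and 0.55). These genes also serve receptors of other cytokines, so the list describes no single pathway.

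Feedback inhibitors moved both ways, with large changes in a few. Of 21 negative regulators, 12 rose and 4 fell with LPS and IFNg, 9 and 4 with LPS, and 5 and 5 with IL-4 at 1 h (medians 0.44, 0.017 and -0.012). Socs3, an inhibitor of the G-CSF receptor among others, was at 2956 CPM with LPS and IFNg and 1335 CPM with LPS at 1 h, against 6.02 CPM unstimulated. Cish, a STAT5 target and inhibitor, rose by 7.23 ± 0.21 with LPS and IFNg, 4.98 ± 0.25 with LPS and 4.96 ± 0.24 with IL-4 at 1 h. At 18 h 9 rose and 4 fell with LPS and IFNg, 10 and 2 with LPS, and 6 and 8 with IL-4 (medians 0.22, 0.38 and -0.016). Of all tested genes at 18 h, 36.1% were called higher and 36.1% lower with LPS and IFNg, 31.8% and 31.4% with LPS, and 19.0% and 20.1% with IL-4. Socs2 rose by 5.48 ± 0.27 with IL-4 at 18 h.

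A list of 20 genes that CSF signals are known to act on through ERK, STAT5 and MYC had 19 tested members. Of these, 12 rose and 3 fell with LPS and IFNg, 14 and 2 with LPS, and 6 and 6 with IL-4 at 1 h (medians 0.86, 1.02 and -0.22). The counts at 18 h were 9 and 6 with LPS and IFNg, 10 and 6 with LPS, and 10 and 6 with IL-4 (medians 0.83, 0.56 and 0.27), beside 36.1% and 36.1%, 31.8% and 31.4%, and 19.0% and 20.1% of all tested genes. Myc, a growth regulator, was at 0.482 CPM with LPS and IFNg and 4.57 CPM with LPS at 18 h, against 49.4 CPM in unstimulated cells. Plau, encoding urokinase, was at 63.2 CPM, 42.7 CPM and 1344 CPM in these groups. Pim1, a STAT5 target kinase, rose by 4.15 ± 0.09 with LPS and IFNg and 4.07 ± 0.09 with LPS at 1 h. Members of the list moved both ways, so it gives no common direction of CSF signalling at 18 h.

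Transcription factors that act at the receptor genes moved both ways as well. Of 10 tested, 6 rose and 2 fell with LPS and IFNg and 6 and 3 with LPS at 1 h, and 4 and 5 with LPS and IFNg and 6 and 3 with LPS at 18 h. With IL-4, 4 rose and 3 fell at 1 h and 5 rose and 3 fell at 18 h. Both directions stood beside 36.1% of all tested genes with LPS and IFNg at 18 h. Medians for LPS with IFNg and for LPS were 0.38 and 0.37 at 1 h and -0.12 and 0.29 at 18 h. Irf8 was at 1323 CPM with LPS and IFNg and 75.7 CPM with LPS at 1 h, a log2 difference of 4.13 ± 0.08 (adjusted p = 1.91e-25), and at 778 and 162 CPM at 18 h (2.26 ± 0.07). Spi1, encoding PU.1, the main activator of Csf1r, rose by 0.82 ± 0.07 with LPS at 18 h. The rise of Csf1r in that group turned round under library-size scaling, and whether Spi1 bears on Csf1r was not tested.

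CSF1R is shed from the cell surface by the protease ADAM17, which needs iRhom proteins. Of 4 tested genes of shedding and turnover, 2 rose and 0 fell in each LPS group at 1 h, and 2 rose and 2 fell in each at 18 h. The median was 0.22 with LPS and IFNg and 0.55 with LPS at 1 h, and -0.15 and -0.14 at 18 h. Rhbdf2, encoding iRhom2, rose by 2.50 ± 0.11 with LPS and IFNg and 1.96 ± 0.11 with LPS at 18 h, and Adam17 by 0.18 ± 0.07 and 0.38 ± 0.07. Rhbdf1, encoding iRhom1, fell by 3.79 ± 0.48 with LPS and IFNg and 1.77 ± 0.36 with LPS, to 0.23 and 1.00 CPM against 3.52 CPM unstimulated, and the protease gene Adam10 by 0.49 ± 0.09 and 0.67 ± 0.09. The protein at the cell surface was not measured.

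Among other ligands and receptors of these and related chains, 4 had almost no reads. Over all 24 libraries there was 1 read of Il3, 3 of Il5, 2 of Il34, which encodes the other CSF1R ligand, and 5 of Il5ra. Of the list of 9, 3 were tested. Il3ra, the alpha chain of the IL-3 receptor, had 9597 reads and rose by 0.51 ± 0.10 with LPS and IFNg and 0.71 ± 0.10 with LPS at 18 h. Kitl, the ligand of the related kinase KIT, was at 104 CPM with LPS and IFNg and 11.4 CPM with LPS at 18 h, against 73.1 CPM in unstimulated cells.

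Likeness of pattern was measured as Pearson's r over the 8 group means of log2 CPM among tested genes of at least 5 CPM, with the 8 members themselves and predicted genes left out, and is a description of groups that share libraries. Between the members, Csf2rb and Csf2rb2 had r = 0.922, which is higher than that of the fourth and the fifth gene named for Csf2rb. Closest to Csf1 were Ube2f (0.98), Cdkn1a (0.98), Nfkbib (0.98), Hspa1a (0.98) and Ifrd1 (0.98). Csf2, at 0 in 6 of the 8 groups, was nearest to Zfp131 (0.98), Trim13, Plat, Fam133b and Hspa13, and Csf3 to AU040320 (0.97) and the chemokine gene Cxcl3 (0.96), then Bri3, Igsf8 and Zfand2b. Csf3r had the tightest neighbours, Laptm4a (0.997), Bbip1 (0.996), Svbp (0.99), Lgals8 (0.99) and Gaa (0.99). Csf2rb was nearest to Golga7 (0.97), Cdc42se2, Homer1, Atf3 and Tceanc2, and Csf2rb2 to Gdap10 (0.96), Stx12, Ppard, Arnt and Arid5a. Csf1r was nearest to Arpc4 (0.97), Mgat5, Snx24, Sirpa and Osbpl3. Csf2ra had the loosest neighbours, Ssr3 (0.94), Efl1 (0.90), Evl, Ahcyl2 and Gnai3.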

How the data were processed

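The 24 RNA-seq libraries were read as deposited: raw counts per Ensembl gene, which the authors made with STAR and featureCounts on GRCm38, per the submitters' processing notes. Their versions, annotation release, strand setting and treatment of reads with several alignments are not given in the sources used here; the library kit was stranded, per the labels' protocols. Of 43629 identifiers 42548 matched GENCODE M21. The 8 genes, the gene lists, the tests and the alternatives were chosen with earlier results of these data known. Groups were taken from the labels.

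A filter on low counts (edgeR's filterByExpr on the 8 groups, minimum count 10) passed 12765 genes and removed 30864. All 24 libraries entered 1 edgeR model (version 4.0.16, R 4.3.3) with TMM factors and no covariate beside the group. Two-sided quasi-likelihood tests were used, with Benjamini-Hochberg adjustment over the tested genes, and 0.05 as threshold. The common biological coefficient of variation was 0.0736. CPM and FPKM use TMM-scaled library sizes. A fold against a group with 0 reads is a bound at 3 counts over the group, and with 1 to 3 reads it is a count ratio with an exact 95% interval; both cover counting error only. Named genes are all 8 members, up to 4 called genes with the largest change in a list, and the 5 nearest in pattern; of list genes, some were chosen after their values were seen. Alternatives were median-of-ratios and library-size scaling, no filter, DESeq2 1.42.0, limma-voom 3.58.1, the compared groups alone, a replicate block, a threshold of 0.01, each replicate left out, both beta chain genes summed, and 2 pairs of libraries left out. The fit was tested on simulated counts. Replicates of a group differed by more than sampling noise (chi-square per gene 1.62 to 11.4), so each counts as a library.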

Additional observations from a re-analysis of the deposited data

Results flagged for a closer look

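The response of a gene at 18 h was set against that at 1 h by an interaction contrast in the same edgeR fit, and 14 such differences passed an adjusted p of 0.05; each value is the log2 response at 18 h minus that at 1 h. For LPS with IFNg against unstimulated cells the differences were -0.45 for Csf1r, -0.77 for Csf2rb and 2.34 for Csf3r. For LPS they were -1.44 for Csf1, 1.38 for Csf2rb, 0.96 for Csf2rb2 and 2.68 for Csf3r. With IL-4 they were 1.20 for Csf1, 0.56 for Csf2ra and 0.61 for Csf2rb. The effect of IFNg added to LPS differed by 1.80 for Csf1, -0.54 for Csf1r, -2.15 for Csf2rb and -1.22 for Csf2rb2.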

How the results depend on the processing

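Over 1962 values of single genes under alternative settings, 1904 stayed on the same side of the threshold, uncalled values that crossed 0 included, 30 lost a call, 24 gained one and 4 changed sign with a call in either fit. Those 4 came with library-size scaling: Csf1r with LPS at 18 h (-0.18), and Csf2ra with LPS at 18 h (-0.31), with LPS and IFNg at 1 h (-0.050) and at 18 h (-0.14). The count of called members fell to 0 for IL-4 at 1 h with both beta chain genes summed, as the sum was at 0.31 and not called (adjusted p = 0.177). In unstimulated cells, 18 h against 1 h, it was 1 at a threshold of 0.01, and 1 to 3 with a replicate left out. Csf2rb with LPS at 1 h (-0.30) became called with library-size scaling (-0.49), with no filter (-0.32), on the compared groups alone (-0.30) and when LPS replicate 3 at 1 h (-0.41) or unstimulated replicate 2 at 1 h (-0.40) was left out; the cause was not tested.

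The labels do not say that a replicate number pairs libraries. Of 28 pairs of groups, 2 had all 3 correlations of same-numbered libraries above 0.1 (range -0.091 to 0.427), and 21 of 24 libraries correlated best with their own number, a hint from the data and not from the design. With the replicate block 3 values became called, Csf2rb with LPS at 1 h (-0.30, adjusted p = 0.0126), Csf2rb2 with IL-4 at 18 h (0.24, adjusted p = 0.042) and Csf1r in IL-4 cells at 18 h against 1 h (-0.17, adjusted p = 0.0197), and none was lost. Depth limits Csf3, with 28 and 43 reads over the LPS groups at 1 h and 18 h, and the Csf2 floors.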
